A study of Homo sapiens with 18 samples.

Results

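A set of 10 genes was followed across 6 groups of libraries. It comprises 6 subunits of the transcription factor AP-1 (FOS, FOSB, FOSL2, JUN, JUNB and JUND) and 4 immediate early genes (EGR1, IER2, ZFP36 and DUSP1). The 10 genes were selected on earlier results of these data, FOS and ZFP36 because their levels set the 2 drugs apart in ZR-75-1. They are 10 of 60656 gene rows in the count table, of which 25113 had a count in any library. CAMA-1 and ZR-75-1 are established oestrogen receptor-positive breast cancer lines. Parental wild-type cells of each line received DMSO, 500 nM abemaciclib or 500 nM palbociclib for 5 days. Both drugs inhibit CDK4 and CDK6, the kinases that inactivate the retinoblastoma protein (Rb). Each group had 3 libraries, so there were 18 in all, and DMSO was the solvent control.

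AP-1 is a dimer that a JUN protein forms with itself or with a FOS protein, and it binds short DNA elements in promoters and enhancers of growth, stress and differentiation genes. Immediate early genes are switched on within minutes of a growth factor or stress signal, by factors such as SRF, the ELK proteins and CREB1 that are already in the cell. Their transcripts are short-lived, and some of their products end the response: ZFP36 binds AU-rich elements and speeds the decay of mRNAs, and DUSP1 removes phosphates from MAP kinases. A level measured after 5 days of drug is a steady or late level and not the early peak for which these genes are named.

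RNA was measured as counts of 3′-end reads per gene, and levels are given as normalised counts in CPM (counts scaled to a common library total after TMM normalisation). Library totals ranged from 2308442 to 4146549, so that 3 counts, the floor used here, equalled 0.723 to 1.30 CPM. Across genes, Pearson's r between 2 replicates on the log scale ran from 0.974 to 0.982 over 18 pairs, and the chi-square of their counts per gene from 1.83 to 5.18, above the value near 1 that sampling noise gives. Levels of cell type markers are in CPM without TMM normalisation. All 8 luminal breast markers had counts in every library, from 41.2 CPM for ESR1 to 2838 CPM for KRT19. Of 10 markers of fibroblasts, immune, endothelial and basal cells, COL1A2, DCN and KRT5 were at 0 in all 18 libraries. VIM, COL1A1 and ACTA2 had counts in every library, with COL1A1 at 10.3 to 24.6 CPM in CAMA-1 and 19.2 to 32.7 CPM in ZR-75-1. The summed level of the 10 was 17.4 to 37.7 CPM. Mitochondrial genes took 14.8% to 16.6% of the counts in CAMA-1 with DMSO and 22.9% to 26.1% with either drug, and 17.3% to 22.6% across ZR-75-1.

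All 10 genes were matched to a RefSeq promoter on GRCh38.p14. The 250 bases before each start were searched on both strands for TGACG, the core letters of the cAMP response element, and for its full form TGACGTCA, which contains the core. The core occurred in 9 of the 10 promoters, all but that of ZFP36, against 21.2% of 35116 promoters of the same length. The full element was present for JUND and DUSP1 (1.65% of promoters). The AP-1 site TGACTCA was in none of the 10 (4.20% of promoters), and the CArG box, the sequence SRF binds, was found only for EGR1 (1.16%), at 2 positions. TATAAA on the sense strand was present for FOS, FOSB, JUNB and DUSP1 (6.80%). A match of letters is a description and no evidence that a factor was bound. Variant letters of these elements and bases farther upstream were not searched, so a gene without a match here may still have such an element. The promoters of the 2 genes selected for the difference between drugs, and of the 3 genes whose levels were most like those of FOS, are printed from 140 to 11 bases before the start. Capitals mark the cAMP response element letters on either strand, the CArG boxes and TATAAA.

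FOS, chr14:75278688-75278817, plus strand: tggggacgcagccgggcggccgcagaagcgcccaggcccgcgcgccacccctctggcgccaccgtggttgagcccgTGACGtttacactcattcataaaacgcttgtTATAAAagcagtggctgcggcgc
ZFP36, chr19:39406707-39406836, plus strand: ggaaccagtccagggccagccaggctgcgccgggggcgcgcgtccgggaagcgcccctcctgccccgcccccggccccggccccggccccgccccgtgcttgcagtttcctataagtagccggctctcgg
EGR1, chr5:138465339-138465468, plus strand: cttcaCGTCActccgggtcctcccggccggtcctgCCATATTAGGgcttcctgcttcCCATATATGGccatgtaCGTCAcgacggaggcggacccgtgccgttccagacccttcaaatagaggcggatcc
DUSP1, chr5:172771206-172771335, minus strand: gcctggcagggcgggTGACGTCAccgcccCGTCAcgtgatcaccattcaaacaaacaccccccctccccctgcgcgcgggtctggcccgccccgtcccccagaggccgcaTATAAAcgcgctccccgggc
JUN, chr1:58784058-58784187, minus strand: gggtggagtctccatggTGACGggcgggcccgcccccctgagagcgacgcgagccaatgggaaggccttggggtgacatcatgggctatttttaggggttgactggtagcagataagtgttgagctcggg

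The ZR-75-1 DMSO libraries differed from each other in these genes more than in others, and this bears on every comparison with them. In replicate 2 all 10 genes lay above the mean of the group on the log2 scale, by 0.59 on average, and in replicate 3 all 10 lay below it, by a mean of −0.59. Replicate 1 lay close to the mean, at 0.01. Scaling sets the median over all genes near 0 in each library, so these deviations are relative to the other genes. Among 30 other immediate early genes, 21 were above the group mean in replicate 2 (median 0.08) and 9 in replicate 3 (median −0.13). Of 6 reported AP-1 target genes 4 were above it in replicate 2 and 1 in replicate 3 (medians 0.06 and −0.16). Of 16 upstream kinases and factors 9 and 6 were (medians 0.004 and −0.04). Other related lists did not follow. Of 9 other AP-1-related bZIP genes 2 were above the mean in replicate 2 and 8 in replicate 3 (medians −0.03 and 0.14). Of 10 MAP kinase feedback genes 3 and 2 were (medians −0.09 and −0.06). The coefficient of variation of the 10 genes in this group had a median of 38.9%, against 12.6% over all genes. In the other 5 groups the median of the 10 genes was 13.3% to 17.8%. The mitochondrial share was 20.5%, 17.3% and 22.6% in replicates 1, 2 and 3, lowest where the 10 genes were highest; its part in the result was not tested.

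**Figure D1:**
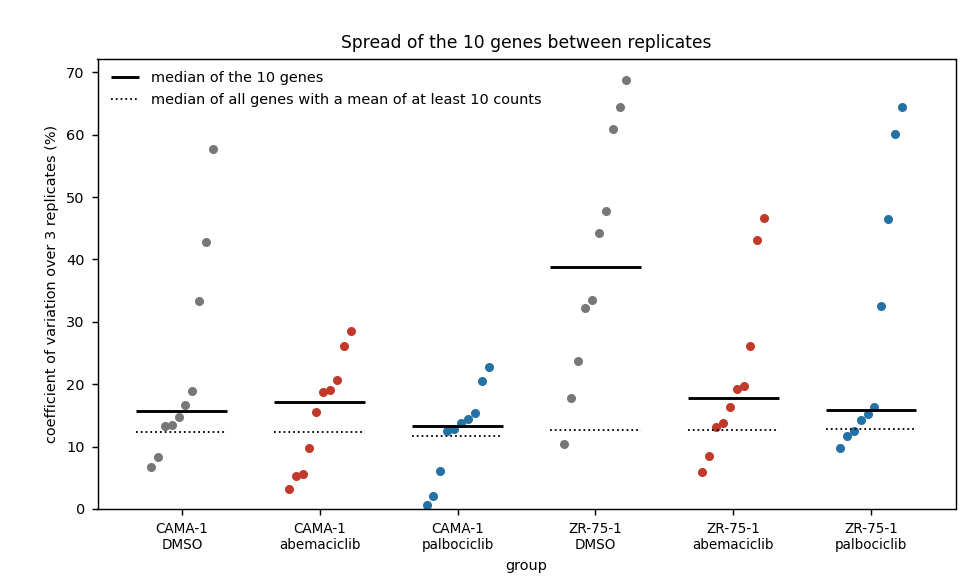
Coefficient of variation over 3 replicates, in percent, for each of the 10 genes (points) in each group, with the median of the 10 genes (solid bar) and of all genes that averaged 10 counts or more (dotted bar). The solid bar stands at 38.9% in ZR-75-1 with DMSO and at 13.3% to 17.8% in the other groups, while the dotted bar stays between 11.7% and 12.8%.

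In CAMA-1 most of the 10 genes rose with each drug. With abemaciclib 7 of 10 were higher and none lower, against 20.3% of 11053 genes called higher and 20.1% called lower. Their median log2 fold change was 1.32, against 0.01 over all genes. With palbociclib 9 of 10 were higher and none lower, against 18.4% and 18.7%, and the median was 1.40. A gene was called at an adjusted p under 0.05 in edgeR's quasi-likelihood test over all genes. FOS, FOSB and ZFP36 reached the minimum of 3.01 CPM in fewer than 3 CAMA-1 DMSO libraries and so entered the test through their drug libraries; without any minimum the counts were again 7 and 9. In a bulk culture, a change in the number of cells with a transcript and a change in RNA per cell cannot be told apart. The mitochondrial share also rose with both drugs in this line, and with mitochondrial genes left out the counts of called genes were unchanged at 7 and 9.

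In ZR-75-1 the 2 drugs went with different levels. Of the 8 genes tested, 3 were higher and 1 lower with abemaciclib than with DMSO, against 17.9% and 18.3% of 11017 genes. With palbociclib 6 were lower and none higher, against 13.4% called lower and 14.5% called higher. FOSB, among these 6, reached the minimum of 3.25 CPM in 2 of 3 palbociclib libraries and so entered the test through the other groups. Without any minimum, 6 were again lower and none higher. The median log2 fold change of all 10 genes was 0.48 with abemaciclib and −1.01 with palbociclib. FOS and ZFP36 are described without a test in this line, since their difference between drugs there is what selected them. Without DMSO replicate 2, which was high, abemaciclib had 6 of 8 higher and 1 lower, and palbociclib had 1 higher and 4 lower. Without replicate 3, which was low, abemaciclib had 2 higher and 1 lower, and palbociclib 0 higher and 6 lower.

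**Figure D2:**
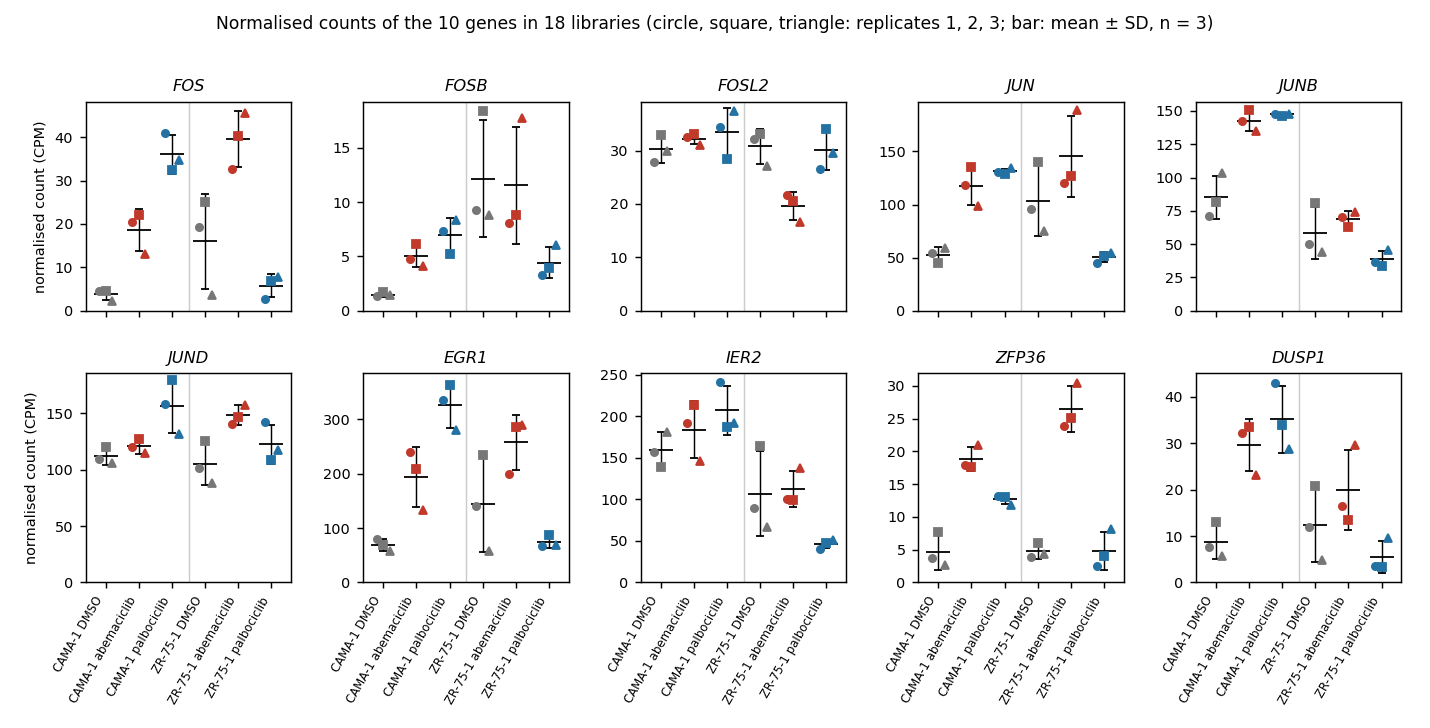
Normalised counts in CPM on linear axes from 0 for the 10 genes, by group on the horizontal axis; circles, squares and triangles are replicates 1, 2 and 3, and bars give the mean ± SD of 3 libraries. For FOS the 3 ZR-75-1 abemaciclib libraries lie at 32.7 to 45.5 CPM and the 3 palbociclib libraries at 2.74 to 7.80 CPM.

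FOS encodes the AP-1 subunit induced most transiently by growth factors. It lies on chromosome 14 (GRCh38, 75278826 to 75282230, plus strand). In CAMA-1 it had 4.65, 4.55 and 2.37 CPM with DMSO, 20.6, 22.0 and 13.0 CPM with abemaciclib, and 41.1, 32.4 and 34.7 CPM with palbociclib. The 3 groups did not overlap, and palbociclib libraries were the highest. The log2 fold change was 2.30 ± 0.28 (SE, n = 3 per group) with abemaciclib and 3.28 ± 0.25 with palbociclib (edgeR adjusted p = 5.59e-09 and 3.07e-14). FOS was 1.96-fold lower with abemaciclib than with palbociclib in this line (log2 −0.97 ± 0.20, edgeR adjusted p = 0.00173).

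In ZR-75-1 the order of the drugs was the opposite one. FOS had 19.3, 25.0 and 3.73 CPM with DMSO, 32.7, 40.3 and 45.5 CPM with abemaciclib, and 2.74, 6.94 and 7.80 CPM with palbociclib. All abemaciclib libraries lay above all palbociclib libraries, and DMSO replicate 3 lay among the palbociclib values while the other 2 DMSO replicates lay above them. Abemaciclib was 6.81-fold above palbociclib (log2 2.77 ± 0.30), a difference given as a description because it selected the gene. Relative to DMSO the log2 differences were 1.28 ± 0.26 and −1.49 ± 0.34. They became 1.75 and −1.01 without DMSO replicate 2, and 0.83 and −1.95 without DMSO replicate 3.

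FOSB, a FOS paralogue on chromosome 19 (45467995 to 45475179, plus strand), was scarce in CAMA-1 with DMSO. It had 4, 5 and 6 counts there (1.33, 1.75 and 1.42 CPM), 4.81, 6.17 and 4.13 CPM with abemaciclib, and 7.33, 5.21 and 8.32 CPM with palbociclib. Both drug groups lay above DMSO and overlapped each other. The log2 fold changes were 1.71 ± 0.48 and 2.19 ± 0.45 (edgeR adjusted p = 0.00352 and 0.000118). In ZR-75-1 it had 9.31, 18.4 and 8.81 CPM with DMSO, 8.09, 8.80 and 17.7 CPM with abemaciclib, and 3.29, 3.97 and 6.06 CPM with palbociclib. Only the palbociclib libraries stood apart, below all others. FOSB fell by 1.46 ± 0.34 on the log2 scale with palbociclib (edgeR adjusted p = 0.000821), and its value with abemaciclib was −0.11 (95% interval −0.72 to 0.51, adjusted p = 0.825). It entered the test in this line through the DMSO and abemaciclib libraries, where it was higher.

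FOSL2 encodes FRA2, a longer-lived FOS-family subunit, and lies on chromosome 2 (28392448 to 28417317, plus strand). Its CAMA-1 levels lay between 27.9 and 37.4 CPM in all 9 libraries, and its log2 fold changes of 0.09 and 0.14 did not pass the test (95% intervals −0.22 to 0.40 and −0.16 to 0.44). ZR-75-1 libraries had 32.1, 33.1 and 27.1 CPM with DMSO, 21.7, 20.6 and 16.6 CPM with abemaciclib, and 26.6, 34.0 and 29.5 CPM with palbociclib. The abemaciclib libraries were below the 6 others. FOSL2 fell by 0.64 ± 0.18 on the log2 scale with abemaciclib (edgeR adjusted p = 0.00311), the reverse of the direction seen for FOS, and was −0.04 with palbociclib (adjusted p = 0.884).

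JUN, the founding JUN-family subunit, lies on chromosome 1 (58776845 to 58784048, minus strand). CAMA-1 libraries had 54.2, 45.2 and 59.1 CPM with DMSO, 119, 136 and 99.0 CPM with abemaciclib, and 130.5, 129 and 134 CPM with palbociclib. All 6 drug libraries lay above DMSO. The log2 fold changes were 1.14 ± 0.11 and 1.30 ± 0.11 (edgeR adjusted p = 2.3e-11 and 3.54e-13). In ZR-75-1 it had 96.0, 140.3 and 74.9 CPM with DMSO, 120.4, 127 and 189 CPM with abemaciclib, and 45.0, 51.6 and 54.6 CPM with palbociclib. Palbociclib libraries lay below all DMSO libraries, and abemaciclib libraries overlapped them. JUN fell by 1.05 ± 0.14 with palbociclib (edgeR adjusted p = 5.42e-08). It rose by 0.47 ± 0.13 with abemaciclib (edgeR adjusted p = 0.00304), a call lost without DMSO replicate 3 (adjusted p = 0.0642), without abemaciclib replicate 3 (adjusted p = 0.167) and in DESeq2 (adjusted p = 0.218).

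JUNB is a JUN-family subunit that often counters JUN in growth control. It lies on chromosome 19 (12791486 to 12793315, plus strand), where an exon of HOOK2 on the other strand overlaps it, and reads of the 2 genes can be told apart only where counting used strand. In CAMA-1 it had 71.4, 81.6 and 103 CPM with DMSO and 135 to 151 CPM in the 6 drug libraries. The groups with a drug did not overlap DMSO, and the log2 fold changes were 0.72 ± 0.10 and 0.77 ± 0.10 (edgeR adjusted p = 1.18e-07 and 2.28e-08). ZR-75-1 libraries had 50.4, 81.0 and 44.4 CPM with DMSO, 70.5, 62.6 and 74.0 CPM with abemaciclib, and 36.8, 33.4 and 45.6 CPM with palbociclib. DMSO overlapped both drug groups. JUNB fell by 0.61 ± 0.15 with palbociclib (edgeR adjusted p = 0.0013), a call lost without DMSO replicate 2 (log2 −0.29, adjusted p = 0.16). With abemaciclib its log2 value was 0.23 (adjusted p = 0.221), and 0.54 without DMSO replicate 2 (adjusted p = 0.0026).

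JUND, the JUN-family member most often found at a constant level, lies on chromosome 19 (18279694 to 18281622, minus strand). CAMA-1 libraries had 109, 120.4 and 106 CPM with DMSO, 119.9, 127 and 115 CPM with abemaciclib, and 158, 179.8 and 132 CPM with palbociclib. Palbociclib libraries lay above the 6 others, with a log2 fold change of 0.49 ± 0.10 (edgeR adjusted p = 5.23e-05). The value with abemaciclib was 0.11 (95% interval −0.09 to 0.31, adjusted p = 0.403). In ZR-75-1 it had 101, 125 and 88.4 CPM with DMSO, 140.4, 147 and 158 CPM with abemaciclib, and 142, 108 and 118 CPM with palbociclib. Here it was abemaciclib that did not overlap DMSO, with a log2 fold change of 0.49 ± 0.10 (edgeR adjusted p = 0.000104), while palbociclib gave 0.22 (adjusted p = 0.105), and 0.37 without DMSO replicate 2 (adjusted p = 0.00884).

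EGR1, a zinc finger transcription factor and a standard readout of ERK signalling, lies on chromosome 5 (138465479 to 138469303, plus strand). In CAMA-1 it had 80.1, 69.7 and 57.2 CPM with DMSO, 241, 209 and 133 CPM with abemaciclib, and 335, 364 and 281 CPM with palbociclib. As for FOS, the 3 groups did not overlap and palbociclib was the highest. The log2 fold changes were 1.51 ± 0.13 and 2.26 ± 0.13 (edgeR adjusted p = 1.28e-12 and 2.82e-18). Abemaciclib was lower than palbociclib by a log2 difference of −0.75 ± 0.12 (edgeR adjusted p = 3.08e-05), which DESeq2 did not call (adjusted p = 0.108).

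In ZR-75-1 EGR1 had 141, 234 and 58.3 CPM with DMSO, 199, 285 and 289 CPM with abemaciclib, and 66.7, 87.3 and 68.7 CPM with palbociclib. The 3 DMSO libraries spanned the distance between the drug groups, with replicate 2 among the abemaciclib values and replicate 3 below every palbociclib library. EGR1 rose by 0.82 ± 0.17 with abemaciclib and fell by 0.98 ± 0.19 with palbociclib (edgeR adjusted p = 0.000103 and 4.98e-05). DESeq2 called neither (adjusted p = 0.216 and 0.175). Without DMSO replicate 2 the values were 1.36 and −0.44, and without replicate 3 they were 0.46 and −1.35, each still called in edgeR.

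IER2, a nuclear protein of the immediate early class, lies on chromosome 19 (13150411 to 13154911, plus strand) and overlaps exons of 2 unnamed genes on the other strand. CAMA-1 libraries had 157, 139 and 181 CPM with DMSO, 191, 214 and 146 CPM with abemaciclib, and 241, 187 and 192 CPM with palbociclib. Only palbociclib lay above DMSO in every library, with a log2 fold change of 0.38 ± 0.10 (edgeR adjusted p = 0.0034), a call lost without palbociclib replicate 1 (adjusted p = 0.0971) and in DESeq2 (adjusted p = 0.126). Abemaciclib gave 0.19 (adjusted p = 0.146), and was called higher without DMSO replicate 3 (log2 0.30, adjusted p = 0.0144) or without abemaciclib replicate 3 (log2 0.33, adjusted p = 0.0134). ZR-75-1 libraries had 89.2, 165 and 67.1 CPM with DMSO, 101, 99.2 and 137 CPM with abemaciclib, and 40.3, 47.6 and 50.8 CPM with palbociclib. Palbociclib libraries lay below the 6 others, and IER2 fell by 1.22 ± 0.16 (edgeR adjusted p = 2.77e-08). With abemaciclib the value was 0.06 (adjusted p = 0.816), and 0.51 without DMSO replicate 2 (adjusted p = 0.00134).

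ZFP36 encodes tristetraprolin, whose target mRNAs include those of immediate early genes and its own. It lies on chromosome 19 (39406847 to 39409412, plus strand). In CAMA-1 it had 3.66, 7.70 and 2.61 CPM with DMSO, 17.9, 17.6 and 21.0 CPM with abemaciclib, and 13.2, 13.0 and 11.8 CPM with palbociclib. The 3 groups did not overlap, and here abemaciclib was the highest. The log2 fold changes were 2.08 ± 0.29 and 1.51 ± 0.30 (edgeR adjusted p = 1.34e-07 and 7.93e-05). The difference of 0.57 between the drugs did not pass the test (95% interval 0.07 to 1.06, adjusted p = 0.293).

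In ZR-75-1 ZFP36 had 3.85, 6.02 and 4.40 CPM with DMSO, 23.9, 25.0 and 30.5 CPM with abemaciclib, and 2.47, 3.97 and 8.09 CPM with palbociclib. Abemaciclib libraries stood above the 6 others, and palbociclib overlapped DMSO. The log2 difference between the drugs was 2.44 ± 0.29, given as a description. Relative to DMSO the values were 2.45 ± 0.29 and 0.02 ± 0.36. ZFP36 varied less than FOS among the DMSO libraries, with a coefficient of variation of 23.7% against 68.8% for FOS and a median of 12.6% over all genes. ZFP36 had only 12, 20 and 13 counts in these libraries, so counting noise is part of its spread. Its abemaciclib value stayed between 2.33 and 2.67 when any DMSO library was left out.

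DUSP1, a nuclear phosphatase of ERK, p38 and JNK kinases, lies on chromosome 5 (172768096 to 172771195, minus strand). CAMA-1 libraries had 7.64, 13.0 and 5.70 CPM with DMSO, 32.3, 33.5 and 23.2 CPM with abemaciclib, and 43.0, 33.9 and 28.8 CPM with palbociclib. Both drug groups lay above DMSO, with log2 fold changes of 1.80 ± 0.23 and 2.07 ± 0.22 (edgeR adjusted p = 1.91e-08 and 3.26e-10). In ZR-75-1 it had 11.9, 20.8 and 4.74 CPM with DMSO, 16.5, 13.5 and 29.7 CPM with abemaciclib, and 3.57, 3.31 and 9.53 CPM with palbociclib. DMSO overlapped both drugs. DUSP1 fell by 1.19 ± 0.36 with palbociclib (edgeR adjusted p = 0.00921). That call was lost in DESeq2 (adjusted p = 0.257), without DMSO replicate 2 (adjusted p = 0.287), and without palbociclib replicate 1 (adjusted p = 0.0535) or replicate 2 (adjusted p = 0.0692). With abemaciclib the value was 0.64 (adjusted p = 0.101), and 1.23 without DMSO replicate 2 (adjusted p = 0.00351).

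**Figure D3:**
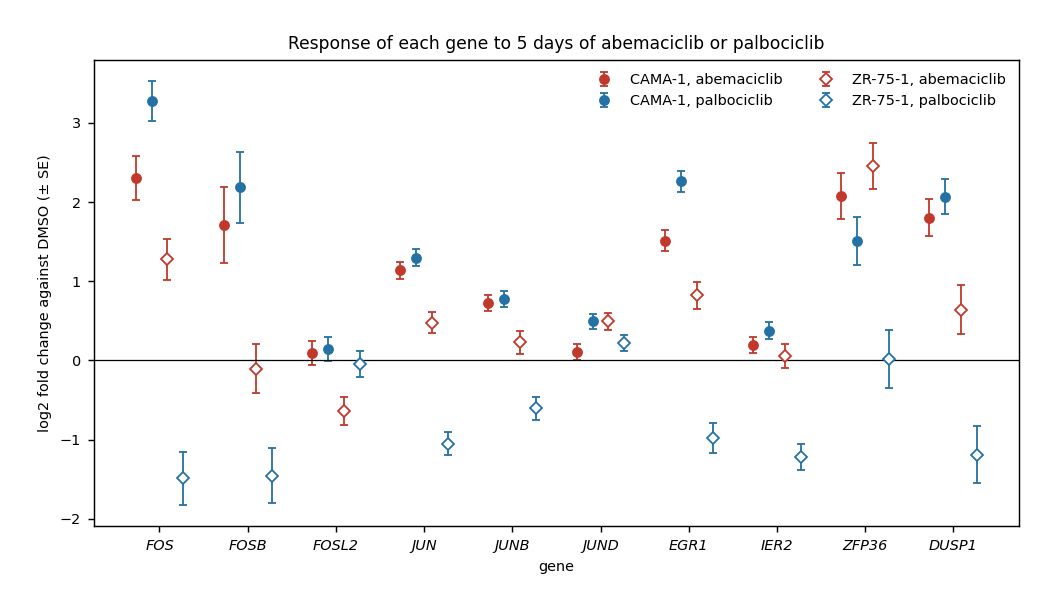
Log2 fold change against DMSO with its standard error for the 10 genes; filled circles are CAMA-1, open diamonds ZR-75-1, red abemaciclib and blue palbociclib. All CAMA-1 values lie above 0, while the ZR-75-1 palbociclib values run from −1.49 for FOS to 0.22 for JUND.

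The 2 drugs were compared directly at the same dose and time. In CAMA-1, 3 of the 10 genes were lower with abemaciclib than with palbociclib and none was higher, against 1.53% of genes called lower and 0.796% called higher. These were FOS, EGR1 and JUND (log2 −0.38 ± 0.10, edgeR adjusted p = 0.0164). JUND lost its call when abemaciclib replicate 1 or 3, or palbociclib replicate 1 or 2, was left out (adjusted p from 0.0731 to 0.223). The other 7 did not pass the test. Their intervals included differences of up to −1.24 on the log2 scale for FOSB, −0.64 for DUSP1, −0.39 for IER2, −0.37 for JUN, −0.35 for FOSL2 and −0.24 for JUNB, so none is shown to be alike with both drugs.

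In ZR-75-1 the same contrast chose FOS and ZFP36, and none of the 10 genes is tested in it. Abemaciclib libraries all lay above palbociclib libraries for 8 of the 10 genes and all below for FOSL2, against 12.5% and 15.1% of genes, and only JUND overlapped. The 8 include FOS and ZFP36, which this difference selected, so the count beside these shares is a description only. After FOS and ZFP36 the log2 differences were 1.83 for DUSP1, 1.80 for EGR1, 1.52 for JUN, 1.35 for FOSB, 1.28 for IER2 and 0.83 for JUNB. JUND differed by 0.27 and FOSL2 by −0.60. All 8 luminal breast markers were also higher in every abemaciclib library of this line. Without TMM normalisation their summed level was 7088 to 7307 CPM, against 5644 to 5842 CPM with palbociclib. On that scale the markers of other cell types summed to 25.1 to 35.4 CPM and 29.3 to 35.5 CPM. The part of either marker list in the difference was not tested.

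Whether a drug response differed between lines was tested as an interaction over all 18 libraries. The palbociclib response was lower in ZR-75-1 than in CAMA-1 for 6 of the 8 genes tested and higher for none, against 10.3% and 10.0% of 11987 genes. The differences in log2 fold change were −3.67 ± 0.58 for FOSB, −3.28 ± 0.46 for DUSP1, −3.26 ± 0.27 for EGR1, −2.38 ± 0.20 for JUN, −1.63 ± 0.22 for IER2 and −1.41 ± 0.19 for JUNB (edgeR adjusted p from 5.76e-15 to 1.22e-06). These 6 calls held when any library was left out and in DESeq2. FOSL2 (−0.21, adjusted p = 0.561) and JUND (−0.30, adjusted p = 0.157) did not pass. Described without a test, the difference was −4.79 for FOS and −1.52 for ZFP36.

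The abemaciclib response was compared in the same way. It was lower in ZR-75-1 for 5 of 8 genes and higher for none, against 10.0% and 8.19% of genes. The differences were −1.83 ± 0.59 for FOSB, −1.19 ± 0.42 for DUSP1, −0.76 ± 0.23 for FOSL2, −0.68 ± 0.19 for JUN and −0.52 ± 0.18 for JUNB (edgeR adjusted p from 0.00776 to 0.0393). None of the 5 was called without ZR-75-1 DMSO replicate 2, when only JUND was called, as higher in ZR-75-1 (0.56, adjusted p = 0.00554). Leaving out CAMA-1 DMSO replicate 1 left 1 gene called lower, and leaving out CAMA-1 DMSO replicate 2 or CAMA-1 abemaciclib replicate 1 left 3. Without CAMA-1 abemaciclib replicate 2 or ZR-75-1 abemaciclib replicate 1 there was 1 lower and 1 higher, and without CAMA-1 DMSO replicate 3 there were 3 lower and 1 higher. With mitochondrial genes left out 4 were lower and 1 higher, and DESeq2 called 2 lower and none higher. EGR1 had a difference of −0.71 (adjusted p = 0.0524) and IER2 of −0.16 (adjusted p = 0.659). FOS and ZFP36, described without a test, had differences of −1.05 and 0.35.

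**Figure D4:**
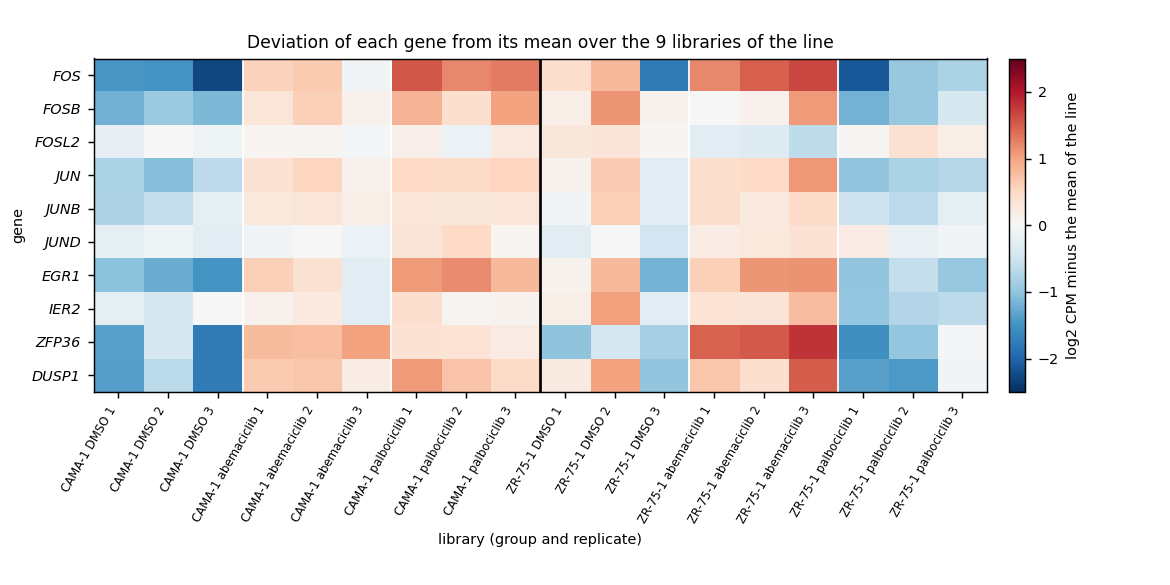
Log2 CPM of each gene minus its mean over the 9 libraries of its line, for 18 libraries in columns (group and replicate); red is above and blue below the mean of the line. The 3 CAMA-1 DMSO columns are mainly blue; in ZR-75-1 the DMSO columns differ, with mean deviations of 0.01, 0.59 and −0.59 in replicates 1, 2 and 3, and the palbociclib columns have mean deviations of −0.94 to −0.37.

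Without a drug the lines differed in level. In DMSO 4 of the 10 genes were higher in ZR-75-1 and 2 lower, against 31.5% and 29.8% of genes, shares near those of the transcriptome. FOSB was higher by 3.09 ± 0.43 on the log2 scale, FOS by 2.20 ± 0.36, EGR1 by 1.17 ± 0.20 and JUN by 1.05 ± 0.14 (edgeR adjusted p from 3.62e-09 to 7.92e-07). JUNB was lower by a log2 difference of −0.46 ± 0.13 and IER2 by −0.49 ± 0.15 (edgeR adjusted p = 0.0018 and 0.00327). The IER2 call was lost in DESeq2 (adjusted p = 0.14) and without ZR-75-1 replicate 1 (adjusted p = 0.0516) or replicate 3 (log2 −0.25, adjusted p = 0.119), and held without replicate 2 (adjusted p = 3.15e-09). The other 5 calls held in DESeq2 and without any DMSO library of either line, although their size moved. Without ZR-75-1 replicate 2 the difference was 1.67 for FOS, 2.60 for FOSB, 0.71 for JUN, 0.58 for EGR1 and −0.83 for JUNB, and without replicate 3 it was 2.65, 3.27, 1.23, 1.54 and −0.30. FOS and EGR1 overlapped between the lines because of ZR-75-1 replicate 3, and FOSB and JUN did not. FOSL2, JUND, ZFP36 and DUSP1 did not pass the test, with log2 differences of 0.11, 0.00, 0.19 and 0.66. DUSP1 was called without ZR-75-1 replicate 3 (log2 1.03, edgeR adjusted p = 0.00331) or CAMA-1 replicate 2 (log2 0.97, edgeR adjusted p = 0.0201), and was 0.02 without ZR-75-1 replicate 2. The line and the culture it came from cannot be told apart.

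The make-up of AP-1 transcripts followed from these levels. Counts of the 6 AP-1 genes were summed within each library, and 3′-end reads are taken here as not scaling with gene length. In CAMA-1 FOS made up 1.37% ± 0.51 (SD, n = 3) of the sum in DMSO, 4.20% ± 0.80 in abemaciclib and 7.05% ± 0.84 in palbociclib libraries. JUN went from 18.5% ± 2.4 to 26.9% ± 1.8 and 25.7% ± 1.3, and JUND from 39.3% ± 3.7 to 27.7% ± 1.1 and 30.5% ± 3.9. The FOS-family share of all 6 stayed between 11.2% and 16.3% in the 9 CAMA-1 libraries, as the share of FOSL2 went from 10.6% ± 0.81 to 7.41% ± 0.44 and 6.55% ± 1.07 while its own level did not pass the test.

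In ZR-75-1 FOS made up 4.55% ± 2.64 of the sum in DMSO, 9.10% ± 0.81 in abemaciclib and 2.32% ± 1.09 in palbociclib libraries. JUND took 32.7% ± 3.1, 34.4% ± 2.6 and 48.6% ± 5.9, and JUN 31.5% ± 1.5, 33.2% ± 4.0 and 20.0% ± 2.2. With palbociclib JUND was thus the most counted of the 6 in each library, at 45.0% to 55.4%. FOSL2 had 4.63% ± 1.16 with abemaciclib and 12.0% ± 2.1 with palbociclib. These shares are descriptions with no test.

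**Figure D5:**
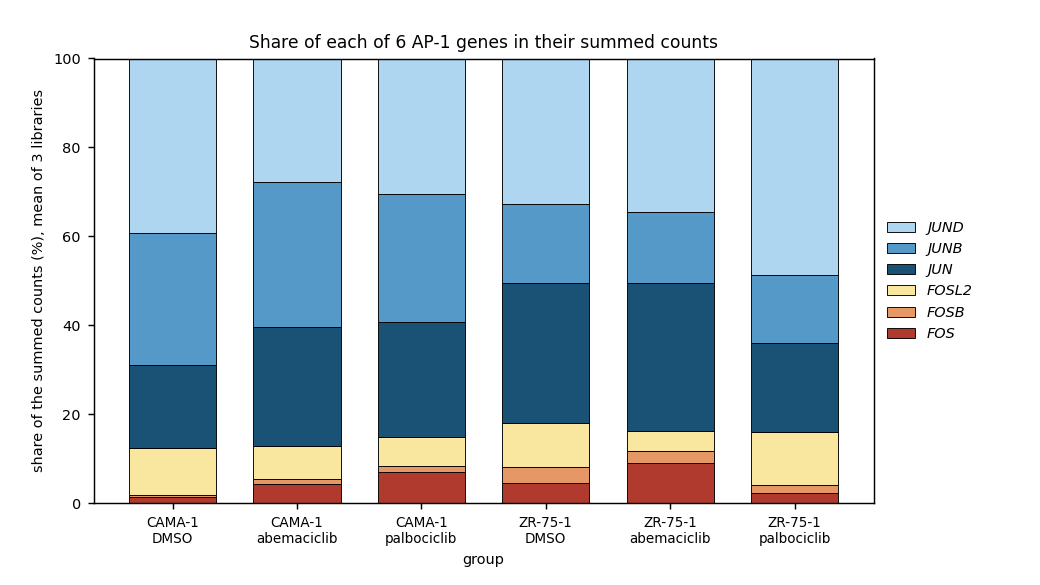
Share of each of 6 AP-1 genes in their summed counts, in percent, as the mean of 3 libraries per group. Blue shades are JUN-family and red to yellow shades FOS-family genes; JUND fills 48.6% of the ZR-75-1 palbociclib bar and 27.7% of the CAMA-1 abemaciclib bar.

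The 10 genes moved together to different degrees. Over 18 libraries, after each line was centred on its own mean, Pearson's r between pairs of the 10 ranged from −0.50 to 0.97 with a median of 0.74, and 36 of 45 pairs were positive. After each group was centred on its own mean, 44 of 45 pairs were positive, with a median of 0.47. These values share libraries and depth and are descriptions. Among 10860 genes, EGR1 (0.97), DUSP1 (0.93) and JUN (0.92) were the 3 most like FOS, followed by KITLG, the ligand of the KIT receptor (0.89). JUNB was 9th and FOSB 11th, while JUND was 349th and FOSL2 had an r of −0.20.

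ZFP36 had other neighbours. Among the genes most like it were RAB11A, a GTPase of recycling endosomes (0.92), TRMT10C, a mitochondrial tRNA methyltransferase (0.92), PNRC2, a factor in mRNA decapping, and GRAMD4 (both 0.91). RAB11A had 186 ± 6.26 CPM with DMSO, 284 ± 9.36 with abemaciclib and 198 ± 4.67 with palbociclib in ZR-75-1, and 126 ± 18.4, 192 ± 14.6 and 179 ± 12.4 in CAMA-1. As for ZFP36, the palbociclib mean was close to DMSO in ZR-75-1 and nearer to abemaciclib in CAMA-1. Of the other 9 genes, DUSP1 was the nearest to ZFP36, at rank 89 (r = 0.81), then FOS at rank 109 (0.80), and FOSL2 had an r of −0.50.

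Other genes of the pathway were counted from lists of related genes. Of 29 other immediate early genes tested in CAMA-1, 19 rose and 2 fell with abemaciclib, and 20 rose and 2 fell with palbociclib, with medians of 0.85 and 0.88 on the log2 scale. The background was 20.3% of genes higher and 20.1% lower for abemaciclib, and 18.4% and 18.7% for palbociclib. In both cases EGR3, a relative of EGR1, and BTG2, an antiproliferative factor, rose most among those abundant enough to be named, and ARC and IER5 fell most. EGR3 rose by 2.53 ± 0.55 and 2.79 ± 0.53 from a DMSO level of 0.807 CPM, near the floor, and BTG2 had 1.52 CPM there, so both entered the test through drug libraries. ARC entered through DMSO, where it was high, and fell by 2.80 ± 0.49 and 1.58 ± 0.41. IER5, whose product binds heat shock factor and protein phosphatase PP2A, fell by 1.04 ± 0.17 and 0.70 ± 0.16.

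In ZR-75-1, 28 of these genes were tested. With abemaciclib 8 rose and 6 fell (median −0.01), and with palbociclib 7 rose and 11 fell (median −0.19). The shares over all genes were 17.9% higher and 18.3% lower with abemaciclib, so the falls were near that background, and 14.5% and 13.4% with palbociclib. EGR3 rose by 2.12 ± 0.15 with abemaciclib and by 1.04 ± 0.16 with palbociclib, from 18.0 CPM to 78.5 and 37.2 CPM, so it rose with palbociclib where EGR1 fell. The other largest changes were CCN1 (1.70 ± 0.18), a matricellular protein, and the falls of IER5 (−2.07 ± 0.19) and KLF2 (−1.34 ± 0.11) with abemaciclib. With palbociclib they were NR4A2 (1.39 ± 0.44), a nuclear receptor, IER5 (−1.44 ± 0.17) and ARC (−1.32 ± 0.45). NR4A2 had a mean of 2.43 CPM with DMSO and ARC 2.36 CPM with palbociclib, under the minimum of 3.25 CPM in this line. NR4A2 thus entered the test through drug libraries, and ARC through libraries without palbociclib. The response of 30 tested genes was lower in ZR-75-1 than in CAMA-1 for 17 and higher for 2 with abemaciclib, and lower for 22 and higher for 1 with palbociclib. Over all genes 10.0% were lower and 8.19% higher with abemaciclib, and 10.3% and 10.0% with palbociclib. AREG, an EGF receptor ligand, differed by −2.26 ± 0.20 and −2.38 ± 0.20.

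Of 9 other AP-1-related bZIP genes tested, 5 rose with abemaciclib and 3 with palbociclib in CAMA-1, and none fell (20.3% and 18.4% of all genes rose). ATF3, a stress-induced repressor, rose by 1.05 ± 0.43 and 2.13 ± 0.39, BATF by 0.77 ± 0.24 with abemaciclib, and MAFF by 1.27 ± 0.47 with palbociclib. With DMSO means of 2.32 and 2.96 CPM, under the minimum of 3.01 CPM, ATF3 and MAFF entered the test through drug libraries. In ZR-75-1 2 of 9 fell with each drug and 1 rose with abemaciclib, near the shares over all genes (18.3% lower and 17.9% higher with abemaciclib, 13.4% lower with palbociclib). JDP2, which dimerises with JUN proteins and represses AP-1 sites, fell by 3.06 ± 0.38 with abemaciclib and 2.47 ± 0.34 with palbociclib, from 18.7 CPM to 2.24 and 3.28 CPM, having entered the test through DMSO, where it was high. ATF3 fell by 1.73 ± 0.24 and 1.53 ± 0.23 there. Its response was lower in ZR-75-1 than in CAMA-1 by −2.81 ± 0.48 with abemaciclib and −3.69 ± 0.43 with palbociclib (edgeR adjusted p = 6.38e-06 and 3.78e-10).

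Feedback regulators of MAP kinases included 10 tested genes in CAMA-1, of which 5 rose with abemaciclib and 3 with palbociclib, against the same shares. DUSP8, a phosphatase of JNK and p38, rose by 1.66 ± 0.12 and 1.48 ± 0.12, SPRY1 by 1.14 ± 0.46 with abemaciclib, and DUSP4 by 2.61 ± 0.49 with palbociclib. DUSP4 and SPRY1 had 1.22 and 2.26 CPM with DMSO and entered the test through drug libraries. Of 11 tested in ZR-75-1, 2 rose and 2 fell with abemaciclib, and 2 rose and 1 fell with palbociclib, counts near the shares over all genes (17.9% higher and 18.3% lower, 14.5% and 13.4%). DUSP4, a nuclear phosphatase of ERK, fell by 0.29 ± 0.08 with abemaciclib and rose by 0.63 ± 0.08 with palbociclib, from 160 CPM to 130.1 and 246 CPM, the reverse of FOS in direction. DUSP2 rose by 1.54 ± 0.27 with abemaciclib, and SPRED1, an inhibitor of RAF activation, fell by 0.45 ± 0.17 and 1.20 ± 0.17.

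Kinases and factors that act upstream were also counted. Of 16 tested in CAMA-1, SRF rose by 0.24 ± 0.09 with abemaciclib and MAP2K7 fell by 0.35 ± 0.12 with palbociclib, and no other was called, fewer than the shares over all genes (20.3% higher and 20.1% lower, 18.4% and 18.7%). In ZR-75-1, 2 of 15 rose and 2 fell with abemaciclib (17.9% and 18.3% of all genes), and 2 rose and 3 fell with palbociclib (14.5% and 13.4%), near the background. MAPK3, which encodes ERK1, fell by 0.45 ± 0.10 and 0.43 ± 0.10, and CREB1 by 0.64 ± 0.17 with palbociclib. MAP2K1 rose by 0.62 ± 0.22 with abemaciclib, and ELK1 by 0.41 ± 0.15 with palbociclib. Among 6 reported AP-1 target genes tested in ZR-75-1, 2 rose and 1 fell with each drug, on the same background. TIMP1, an inhibitor of matrix metalloproteinases, rose by 2.85 ± 0.18 and 2.07 ± 0.19, CCND1, the cyclin D1 gene, by 0.93 ± 0.06 and 0.82 ± 0.06, and VEGFA fell by 1.02 ± 0.32 and 1.31 ± 0.32. In CAMA-1 only 4 were tested, and CCND1 rose by 1.30 ± 0.06 and 1.31 ± 0.06 while HMOX1 fell by 0.76 ± 0.21 and 0.85 ± 0.21. In ZR-75-1 CCND1 and TIMP1 thus rose with both drugs and VEGFA fell with both. The relation of these target genes to the levels of the AP-1 genes was not tested.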

How the data were processed

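RNA of 18 cultures (2 lines, 3 treatments, 3 replicates) was sequenced from the 3′ end with a Lexogen QuantSeq kit. Sources disagree on which strand the kit reads. The deposited values are read counts per gene: the authors trimmed reads with BBDuk, aligned them to hg38 with STAR 2.7.5b and counted them with featureCounts 2.0.1 on an earlier GENCODE release than that used here for coordinates (release 44). Use of strand, of reads with several alignments and of molecular identifiers is not given in the sources used here, so overlapping genes are less certain and floors cover counting error only. The study describes the replicates as independent; p-values measure the spread between these libraries.

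Each line was fitted over its 9 libraries in edgeR 4.0.16 (R 4.3.3) with filterByExpr, TMM scaling and a quasi-likelihood F test, adjusted by Benjamini-Hochberg over 11053 genes (CAMA-1) or 11017 (ZR-75-1). Interactions and the comparison of lines used a single fit of 18 libraries (11987 genes). SE is the log2 fold change divided by the root of F. Alternatives were RLE and upper-quartile scaling, 2 other filters, mitochondrial genes left out, DESeq2 1.42.0 (the tool of the study), other sets of libraries in the fit, the replicate number as a block and each replicate left out. Same-numbered libraries did not deviate together (r from −0.08 to 0.01 over 18 pairs), so the main fits have no block.

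The 10 genes and all gene lists were chosen with earlier results of these data known, so that their counts are no independent evidence of a direction. All 10 genes are named in each comparison; from each list only the 2 largest called rises and the 2 largest called falls could be named, if mean counts reached 10. Some genes that met the rule for likeness to FOS or ZFP36 are not reported here.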

Additional observations from a re-analysis of the deposited data

Results flagged for a closer look

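Responses that differed between the lines by the interaction test stand out for a closer look. For palbociclib the log2 response of ZR-75-1 differed from that of CAMA-1 by −3.67 for FOSB, −3.28 for DUSP1, −3.26 for EGR1, −2.38 for JUN, −1.63 for IER2 and −1.41 for JUNB. In each of these 6 genes the fitted response was a rise in CAMA-1 and a fall in ZR-75-1. DESeq2 did not call the ZR-75-1 falls of EGR1 and DUSP1 (adjusted p = 0.175 and 0.257) or the CAMA-1 rise of IER2 (adjusted p = 0.126). Without ZR-75-1 DMSO replicate 2, edgeR did not call the falls of JUNB and DUSP1 (adjusted p = 0.16 and 0.287). For abemaciclib the difference was −1.83 for FOSB, −1.19 for DUSP1, −0.76 for FOSL2, −0.68 for JUN and −0.52 for JUNB. None of these 5 was called without ZR-75-1 DMSO replicate 2.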

How the results depend on the processing

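Counts of called genes kept within 1.5 times of the reported count under every scaling, filter and fit tried, except as given here. With abemaciclib against DMSO in ZR-75-1, DESeq2 called 2 genes against 4, and leaving out a library gave 3 to 7. For the abemaciclib response between lines, DESeq2 called 2 against 5, a mean of at least 10 counts gave 3, and leaving out a library gave 1 to 6. The fit with the replicate block gave 4 there and left the other counts as reported, and the numbers do not pair the libraries. Of the values per gene and setting, 1266 kept direction and side of the threshold, 55 lost a call, 23 gained one and 26 changed sign; the cause was not tested.

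All sign changes were in values that had not passed the test or had none. With palbociclib against DMSO in ZR-75-1, ZFP36 was −0.0024 under upper-quartile scaling, −0.016 with the replicate block and −0.59 to 0.35 when a library was left out, and FOSL2 was −0.15 to 0.037. With abemaciclib against DMSO in ZR-75-1, FOSB was −0.53 to 0.33 and IER2 −0.18 to 0.51. Between drugs in CAMA-1, FOSL2 was −0.15 to 0.032. For the abemaciclib response between lines, IER2 was −0.40 to 0.35 and ZFP36 −0.12 to 0.74. Between lines in DMSO, JUND was −0.0051 without a filter, −0.020 with a mean of at least 10 counts, −0.0094 with the replicate block and −0.20 to 0.11 when a library was left out, and ZFP36 was −0.18 to 0.66.

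FOSB, with 4 to 6 counts in CAMA-1 DMSO libraries, and FOS and ZFP36 at a few CPM there, are limited by depth.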
